A study of Mus musculus with 6 samples.

Results

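The 10 genes described here encode transcription factors of the somatic cells of the ovary, that is of its pregranulosa, stromal and surface epithelial cells. They are Wt1, Gata4, Nr5a1, Lhx9, Emx2, Foxl2, Runx1, Irx3, Irx5 and Nr2f2, and they were taken by symbol from the 25239 genes of a deposited table of read counts. RNA was sequenced from ovaries of C57BL/6 embryos at E18.5, shortly before birth, in 3 libraries with the genotype Hnrnpl-null, abbreviated CKO in their titles, and 3 libraries with the genotype WT. Hnrnpl encodes an RNA-binding protein that regulates splicing. The labels give oocyte as the cell type, but the ovaries were dispersed with Liberase and DNase and no sort is named. They name neither the Cre line nor the cells in which the gene was removed. The name given to the deposited counts contains the gene symbol stra8, with no role stated. The labels do not tie replicates to separate animals, so p-values measure only the spread between these libraries. Samples of postnatal day 1, which the study's design also names, were not analysed here.

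The somatic cells of the gonad arise from a common ridge of cells on the mesonephros. Wt1, Gata4, Nr5a1, Lhx9 and Emx2 are needed to build that ridge before it becomes an ovary or a testis. In the ovary, Foxl2 and Runx1 maintain the pregranulosa cells, which enclose oocytes to form primordial follicles around birth, and Nr2f2 marks the stroma. Irx3 and Irx5 are homeobox genes of pregranulosa cells, and Irx3 has also been reported in oocytes when germ cell nests break down.

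The libraries held between 8949781 and 22401419 counts in total. The ribosomal RNA gene Rn45s took 86.1% of the counts in Hnrnpl-null replicate 3 and 83.0% in WT replicate 1, and between 18.6% and 36.0% in the other libraries, which left 1757572 to 10980179 counts for all other genes. Levels are given as CPM, counts relative to a library size scaled by TMM (edgeR's trimmed mean of M-values), and fold changes are Hnrnpl-null over WT from edgeR's quasi-likelihood test, with Benjamini-Hochberg adjustment over the 14849 genes that passed the filter on low counts. A gene was called when its adjusted p was below 0.05. Hnrnpl itself averaged 184 ± 25.5 CPM in Hnrnpl-null and 162 ± 14.8 CPM in WT libraries (SD, n = 3 each), with an edgeR adjusted p of 0.499, so its level over the whole gene does not check the genotype labels. Whole-ovary RNA cannot tell fewer cells of a type from less RNA per cell, which holds for every value below.

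All 10 genes passed the filter on low counts, and edgeR called 0 of them higher and 0 lower in Hnrnpl-null ovaries. Over all 14849 genes tested, 4.46% were called, 2.67% higher and 1.79% lower. Irx3 had the lowest adjusted p, 0.0598, and its level in the Hnrnpl-null libraries was 0.682 times that in WT libraries, with a 95% interval of 0.542 to 0.857. It was 1 of the 10 with an unadjusted p below 0.05, against 18.49% of all genes. The other adjusted p-values lay between 0.344 and 0.925. The intervals of the 9 other genes held a fold of 1, and for 8 of those 9, all but Irx5, they ran from 0.708 at the lowest to 1.36 at the highest. The Hnrnpl-null and WT libraries did not overlap for 2 of the 10 genes, Runx1 (higher) and Irx3 (lower), against 25.6% of all genes.

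**Figure D1:**
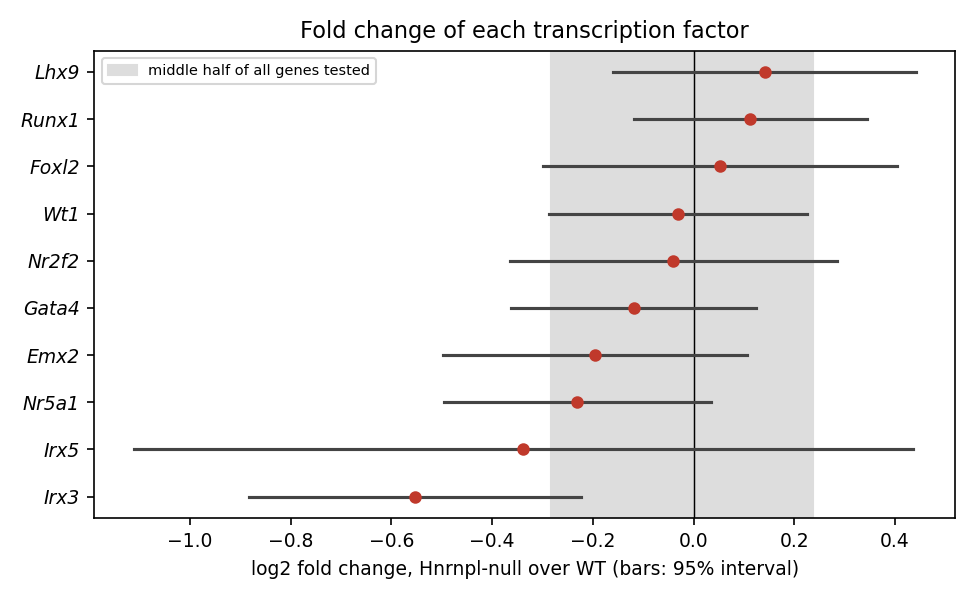
Log2 fold change, Hnrnpl-null over WT, of each of the 10 transcription factor genes, with bars for the 95% interval from edgeR's quasi-likelihood fit and grey for the middle 50% of all genes tested. The interval of Irx3 lies wholly below 0 and the intervals of the other 9 genes cross 0.

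Among the genes that found the gonad, Wt1 had the highest level of the 10. It encodes a zinc finger factor, at chr2:105126529-105173614 on the plus strand of mm10. Its levels were 184, 217 and 218 CPM in Hnrnpl-null libraries, against 220, 195 and 218 CPM in WT libraries. Its groups overlapped, and its fold was 0.979, with an interval of 0.820 to 1.17. Gata4, the zinc finger factor at chr14:63198914-63245271 that is required for the genital ridge to thicken, had 150, 169 and 169 CPM in Hnrnpl-null libraries, against 189, 173 and 168 CPM in WT libraries. Hnrnpl-null replicate 1 was the lowest library for both genes. The Gata4 fold was 0.921, with an interval of 0.778 to 1.09 and an edgeR adjusted p of 0.631.

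Nr5a1 encodes the orphan nuclear receptor SF-1, which directs formation of the gonad and the adrenal gland and drives steroidogenic genes. It lies at chr2:38692656-38714542 on the minus strand. Its levels were 58.2, 57.2 and 63.8 CPM in Hnrnpl-null libraries, against 76.9, 72.7 and 60.1 CPM in WT libraries. WT replicate 3 fell among the Hnrnpl-null libraries, and the other 2 WT libraries stood above all of them. The mean was 59.7 ± 3.52 CPM in Hnrnpl-null and 69.9 ± 8.76 CPM in WT libraries (SD, n = 3 each). The fold was 0.852, with an interval of 0.709 to 1.02 and an edgeR adjusted p of 0.344.

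Lhx9, a LIM homeobox gene at chr1:138825186-138847579 without which no gonad forms in mice, had 54.2, 69.5 and 71.2 CPM in Hnrnpl-null libraries, against 63.2, 63.0 and 49.9 CPM in WT libraries. The groups overlapped, and the fold was 1.10, with an interval of 0.895 to 1.36. Emx2, a homeobox gene at chr19:59458690-59465357 that is needed for the kidney, the genital tract and the gonad, had 24.5, 26.0 and 31.9 CPM in Hnrnpl-null libraries, against 31.1, 31.6 and 30.1 CPM in WT libraries. Hnrnpl-null replicates 1 and 2 stood below every WT library and Hnrnpl-null replicate 3 above them all. Its fold was 0.873, with an interval of 0.708 to 1.08 and an edgeR adjusted p of 0.503.

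**Figure D2:**
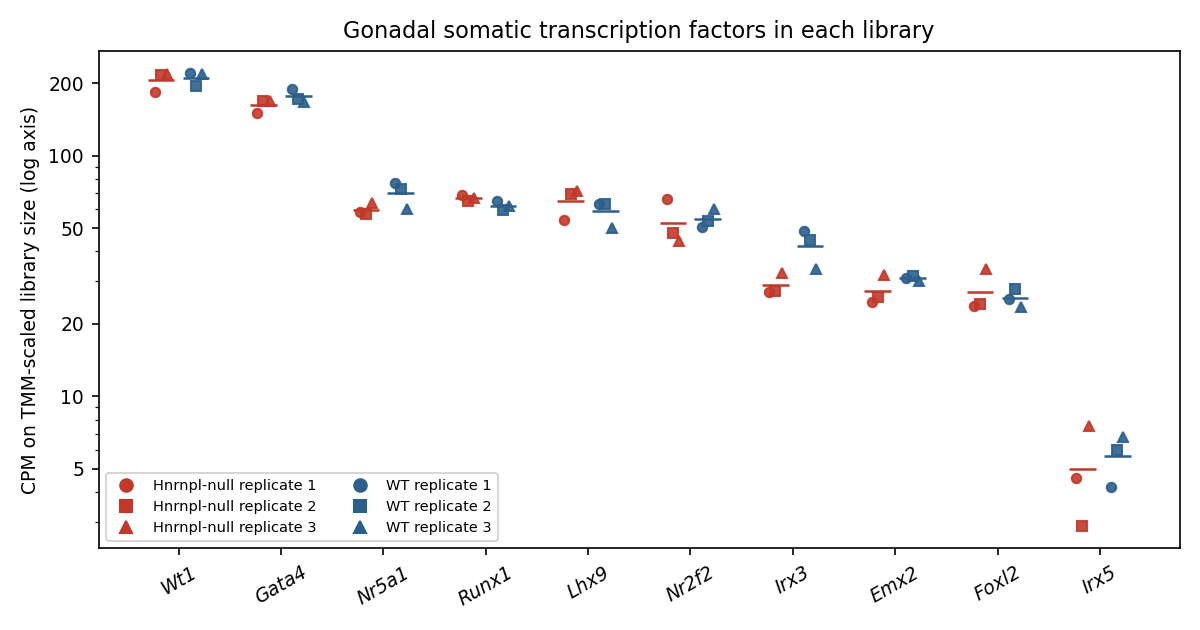
CPM on a log axis for each of the 10 genes in every library, with Hnrnpl-null libraries left of WT libraries and a bar at each group mean. The Hnrnpl-null and WT points do not overlap for Irx3, where the Hnrnpl-null libraries lie lower, or for Runx1, where they lie higher.

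Of the pregranulosa genes, Foxl2 encodes the forkhead factor that keeps granulosa cells from taking on a testicular fate. It lies at chr9:98955607-98958126 on the plus strand. Its levels were 23.65, 24.18 and 33.75 CPM in Hnrnpl-null libraries, against 25.29, 27.94 and 23.43 CPM in WT libraries. Hnrnpl-null replicate 3, 1 of the libraries rich in Rn45s, was the highest. The fold was 1.04, with an interval of 0.813 to 1.32, and the log2 fold change was 0.05 with that library and -0.10 without it.

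Runx1 encodes a runt domain factor that acts beside Foxl2 in the mouse fetal ovary and is also required for blood stem cells. The gene spans chr16:92601466-92826074 on the minus strand. RefSeq places starts of its transcripts at 2 sites, which lie 128745 bases apart, and counts over the whole gene do not separate them. The window of each, from 250 bases before to 50 after the start on GRCm38.p6, is shown because Runx1 was the gene whose Hnrnpl-null libraries all lay above WT. The distal window is chr16:92826025-92826324, with 45% G and C, and the proximal window is chr16:92697280-92697579, with 69% G and C. Capitals mark matches to the RUNX core (TGTGGT) and the forkhead core (TAAACA) on either strand.
Runx1 distal start: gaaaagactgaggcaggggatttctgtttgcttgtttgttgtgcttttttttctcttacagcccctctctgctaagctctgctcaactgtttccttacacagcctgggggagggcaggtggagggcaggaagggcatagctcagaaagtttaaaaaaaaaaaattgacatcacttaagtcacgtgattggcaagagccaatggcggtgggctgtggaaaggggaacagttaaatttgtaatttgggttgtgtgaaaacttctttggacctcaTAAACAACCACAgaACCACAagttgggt
Runx1 proximal start: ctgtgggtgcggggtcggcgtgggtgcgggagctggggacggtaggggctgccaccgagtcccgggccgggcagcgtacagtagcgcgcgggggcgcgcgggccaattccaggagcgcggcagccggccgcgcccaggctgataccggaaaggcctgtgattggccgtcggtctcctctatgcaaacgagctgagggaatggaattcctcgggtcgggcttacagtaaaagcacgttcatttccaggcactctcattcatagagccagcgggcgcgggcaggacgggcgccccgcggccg
The distal window held the RUNX core on the opposite strand at bases 29 and 37 after the start, and a forkhead core that ends just before the first of them. At least 1 RUNX core stood in 16.8% of all 32851 RefSeq windows and at least 2 in 1.81%. The forkhead core stood in 13.4%. The proximal window held neither. In all, 5 cores were searched in 7 windows of 6 of the 10 genes, and the window of Emx2 also held the forkhead core.

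Runx1 had 68.89, 64.95 and 66.88 CPM in Hnrnpl-null libraries, against 64.55, 59.45 and 61.74 CPM in WT libraries. Every Hnrnpl-null library lay above every WT library, by as little as the gap between Hnrnpl-null replicate 2 and WT replicate 1. The fold was 1.08, with an interval of 0.921 to 1.27 and an edgeR adjusted p of 0.632. The summed level of 10 myeloid markers was 594 to 754 CPM in Hnrnpl-null and 40.2 to 44.5 CPM in WT libraries, with 8 of the 10 called higher and Ms4a3 at 0 in every WT library. That of the mast cell markers was 880 to 1012 CPM in Hnrnpl-null and 248 to 261 CPM in WT libraries, with 5 of 6 tested called higher. The part of blood cells in the Runx1 level was not tested.

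Irx3 and Irx5 are neighbours in a cluster of Iroquois homeobox genes on chromosome 8, 556.1 kb apart. Irx3 lies at chr8:91798511-91801654 on the minus strand. Its RefSeq promoter window, chr8:91801605-91801904, is shown because Irx3 had the largest difference relative to its error. It held no match to any of the 5 cores searched on both strands, which are the 2 above, GATAA (in 25.4% of all windows), AGGTCA (16.3%) and TAATTA (5.29%), so no base is in capitals.
Irx3: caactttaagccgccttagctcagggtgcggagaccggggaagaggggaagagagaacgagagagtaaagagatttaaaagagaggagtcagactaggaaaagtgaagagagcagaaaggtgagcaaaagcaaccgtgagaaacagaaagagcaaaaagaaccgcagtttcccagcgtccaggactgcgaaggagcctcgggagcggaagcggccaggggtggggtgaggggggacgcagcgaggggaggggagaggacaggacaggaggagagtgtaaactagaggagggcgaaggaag

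Irx3 had 27.1, 27.5 and 32.5 CPM in Hnrnpl-null libraries, against 48.5, 44.4 and 33.7 CPM in WT libraries. Every Hnrnpl-null library lay below every WT library, and the closest pair were Hnrnpl-null replicate 3 and WT replicate 3. The mean was 29.0 ± 3.0 CPM in Hnrnpl-null and 42.2 ± 7.64 CPM in WT libraries (SD, n = 3 each). The log2 fold change was -0.55 ± 0.15 (SE). The level was lower under all 16 alternatives run, with log2 fold changes of -0.69 to -0.45, while the adjusted p ranged from 0.0147 to 1. Irx3 was called in 6 of them, which were DESeq2 (0.0225), limma-voom (0.0193), no filter on low counts (0.0147), counts halved to read pairs (0.0391), and the fits without Hnrnpl-null replicate 3 (0.0331) and without WT replicate 3 (0.0350). The other fits that left out 1 library gave adjusted p-values of 0.169 to 0.217, and the replicate number as a block gave 0.102. Of 10 germ cell markers, 9 were called lower in Hnrnpl-null libraries, with a summed level of 174 to 198 CPM in Hnrnpl-null and 359 to 385 CPM in WT libraries. That sum includes Kit, the marker not called, which is also among the mast cell markers. Kit averaged 88.7 ± 3.93 CPM in Hnrnpl-null and 97.0 ± 4.93 CPM in WT libraries. The part of germ cells in the Irx3 level was not tested.

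**Figure D3:**
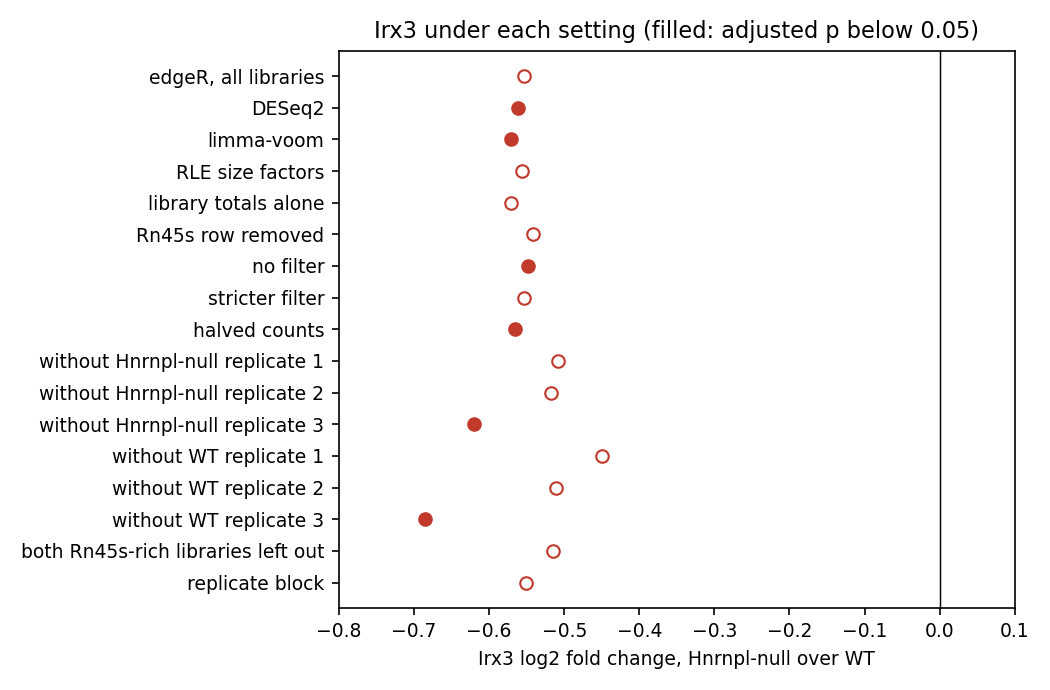
Log2 fold change of Irx3, Hnrnpl-null over WT, as reported and under each of 16 alternatives, with filled points where Irx3 was called at an adjusted p below 0.05. Every value lies between -0.69 and -0.45, and 6 alternatives called the gene.

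Irx5, at chr8:92357796-92361456, was the least abundant of the 10. It had 4.55, 2.89 and 7.5 CPM in Hnrnpl-null libraries, against 4.22, 5.97 and 6.75 CPM in WT libraries. These rest on 12 to 72 read pairs a library, and the highest value, in Hnrnpl-null replicate 3, on 12 pairs, with an exact Poisson interval of 6.20 to 21.0 that covers counting error only. The fold was 0.791, with an interval of 0.463 to 1.35, which also holds the fold of Irx3. The ratio of Irx3 to Irx5 in CPM per kb of exon was 6.06, 9.66 and 4.41 in Hnrnpl-null libraries and 11.7, 7.57 and 5.07 in WT libraries, which overlapped.

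The stromal gene Nr2f2, at chr7:70351950-70366746, encodes the orphan nuclear receptor COUP-TFII. It had 66.2, 47.6 and 44.4 CPM in Hnrnpl-null libraries, against 50.6, 53.3 and 60.2 CPM in WT libraries. The Hnrnpl-null libraries included both the highest and the 2 lowest values. The fold was 0.973, with an interval of 0.777 to 1.22 and an edgeR adjusted p of 0.922.

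Levels of different genes were compared in CPM per kb of exon. In Hnrnpl-null libraries Wt1 stood at 66.8 ± 6.20, Gata4 at 47.7 ± 3.15 and Nr5a1 at 18.8 ± 1.11 CPM per kb, with no overlap between them. Irx3 came next in Hnrnpl-null libraries at 12.3 ± 1.27 CPM per kb, and its range met that of Lhx9, Nr2f2, Foxl2 and Emx2, which averaged 10.6 to 11.3 CPM per kb. Runx1 at 9.07 ± 0.267 and Irx5 at 2.07 ± 0.971 CPM per kb followed in Hnrnpl-null libraries. In WT libraries Irx3 stood apart from that group, at 17.9 ± 3.23 CPM per kb, where its range met that of Nr5a1 at 22.0 ± 2.76 CPM per kb. The group below it averaged 10.1 to 11.9 CPM per kb in WT libraries, and Wt1, Gata4, Runx1 and Irx5 kept their places. Irx3 made up 6.16%, 5.80% and 6.45% of the summed CPM per kb of the 10 genes in Hnrnpl-null libraries, against 9.11%, 8.92% and 6.92% in WT libraries.

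None of the 10 genes shares exonic bases with another row of the table. Wt1os, a noncoding gene whose start lies 19 bases from that of Wt1 on the opposite strand, had 15.3, 10.8 and 12.8 CPM in Hnrnpl-null libraries, against 14.9, 16.5 and 19.5 CPM in WT libraries. The groups overlapped, and its edgeR adjusted p was 0.299. Foxl2os, which starts 297 bases from Foxl2, had a log2 fold change of -0.23 and an edgeR adjusted p of 0.684. No source used here says whether counting used the strand. A read that reached past the deposited start of either gene of a pair could then have counted for the other.

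Among relatives of these factors, Runx3 rose to 8.18, 6.70 and 3.75 CPM in Hnrnpl-null libraries, against 0.264, 0.746 and 0.551 CPM in WT libraries, with a log2 fold change of 3.48 ± 0.46 (SE) and an edgeR adjusted p of 5.7e-04. Runx2 had 7.42, 5.25 and 5.0 CPM in Hnrnpl-null libraries, against 1.32, 1.04 and 0.827 CPM in WT libraries, with a log2 fold change of 2.53 ± 0.39 and an edgeR adjusted p of 0.0024. Runx2 is known for bone formation and Runx3 for lymphocytes and neurons, and both are expressed in blood cells. Their WT levels rest on 2 to 18 counts for Runx3 and 10 to 25 for Runx2. Both calls held whichever library was left out. The part of blood cells, whose markers are given above, was not tested.

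Gata2, a factor of blood progenitors and of mast cells, had 39.8, 34.4 and 33.8 CPM in Hnrnpl-null libraries, against 24.8, 21.1 and 22.5 CPM in WT libraries, with an edgeR adjusted p of 0.015. That call was lost without Hnrnpl-null replicate 1 or 2 or WT replicate 2 or 3, with adjusted p-values of 0.0501 to 0.0885. Gata6, the partner of Gata4 in gonadal cells, chosen after its values were seen, had 141, 129 and 142 CPM in Hnrnpl-null libraries, against 116, 105 and 96.3 CPM in WT libraries. Its groups did not overlap, and its log2 fold change was 0.38 ± 0.11 (SE) with an edgeR adjusted p of 0.0761. It passed the threshold in 3 of 16 alternatives, with DESeq2 (0.0126), with limma-voom (0.0167) and without both libraries rich in Rn45s (0.0487). No fit that left out 1 library called it (0.0899 to 0.244). Foxo3, a forkhead factor that keeps primordial oocytes dormant, averaged 62.4 ± 3.33 CPM in Hnrnpl-null and 88.2 ± 11.5 CPM in WT libraries (SD, n = 3 each), with an edgeR adjusted p of 0.035 that rose to 0.117 to 0.173 without Hnrnpl-null replicate 1 or 2 or WT replicate 1 or 2, and to 0.0506 without both libraries rich in Rn45s. Over the 20 relatives and cofactors tested, 3 were called higher and 1 lower.

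**Figure D4:**
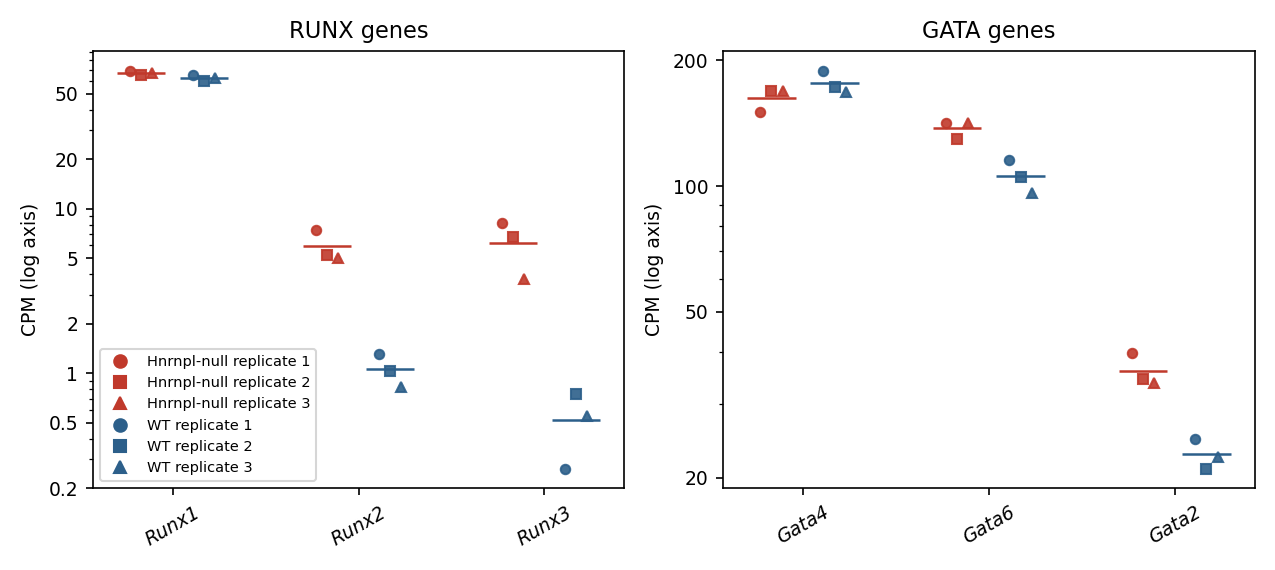
CPM on log axes of Runx1, Runx2 and Runx3 (left) and of Gata4, Gata6 and Gata2 (right) in every library, with Hnrnpl-null libraries left of WT libraries and a bar at each group mean. Runx2 and Runx3 lie higher in all Hnrnpl-null libraries, Runx1 lies between 59.45 and 68.89 CPM in all 6, and the Gata4 points of the 2 genotypes overlap while those of Gata6 and Gata2 do not.

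Of 19 other pregranulosa genes tested, 1 was called higher and 1 lower, with a median log2 fold change of -0.18, against -0.01 over all genes and -0.08 over the 10 factors. Their summed level was 1049 to 1160 CPM in Hnrnpl-null and 1037 to 1115 CPM in WT libraries. Kitl, the ligand of the oocyte receptor Kit, averaged 174 ± 4.0 CPM in Hnrnpl-null and 78.4 ± 7.05 CPM in WT libraries (SD, n = 3 each), with an edgeR adjusted p of 3.7e-05. Hes1, a target of Notch signalling, averaged 18.8 ± 3.19 CPM in Hnrnpl-null and 37.6 ± 3.90 CPM in WT libraries (SD, n = 3 each), with an edgeR adjusted p of 0.0021. Both calls held whichever library was left out. Wnt4, a signal of ovarian fate, averaged 63.2 ± 2.96 CPM in Hnrnpl-null and 58.2 ± 1.79 CPM in WT libraries and was not called. Of the 19 genes, 2 lay higher without overlap (Kitl and Wnt4) and 5 lay lower, where 25.6% of all genes did not overlap. The 5 lower were Hes1 and the uncalled Fst, Fgfr2, Notch2 and Cdkn1b.

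Of 18 stromal genes tested, 4 were called higher and 1 lower, with a median log2 fold change of 0.14. The collagen genes Col1a1, Col1a2 and Col3a1 and the proteoglycan gene Dcn were the 4 higher, and Col1a1 averaged 4486 ± 218 CPM in Hnrnpl-null and 2792 ± 115 CPM in WT libraries (SD, n = 3 each), with an edgeR adjusted p of 0.010. Gli1, a target of hedgehog signalling, averaged 3.29 ± 0.714 CPM in Hnrnpl-null and 8.87 ± 3.29 CPM in WT libraries, with an edgeR adjusted p of 0.027. Calls were lost when single libraries were left out, that of Col1a1 without Hnrnpl-null replicate 2 (adjusted p 0.0538), those of Col3a1 and Dcn in 5 of 6 such fits each (0.0701 to 0.161 for Col3a1 and 0.0599 to 0.181 for Dcn), and that of Gli1 without Hnrnpl-null replicate 1 or 2 or WT replicate 2 (0.0842 to 0.214). The call of Col1a2, with an edgeR adjusted p of 0.0416, was not followed through these fits.

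Of 13 surface epithelial genes tested, 3 were called higher and 0 lower, with a median log2 fold change of 0.48. The summed level of the 13 was 735 to 955 CPM in Hnrnpl-null and 682 to 793 CPM in WT libraries. Libraries of the 2 genotypes did not overlap for 6 genes that lay higher and 1 that lay lower, against 25.6% of all genes. The 1 lower was Aldh1a1 (143 ± 20.7 CPM in Hnrnpl-null, 192 ± 14.7 CPM in WT), which was not called. The 3 called, all mesothelial genes, were Upk3b (149 ± 8.73 CPM in Hnrnpl-null, 105 ± 12.8 CPM in WT), Krt19 (146 ± 26.1 CPM in Hnrnpl-null, 97.2 ± 9.64 CPM in WT) and Msln (22.0 ± 10.4 CPM in Hnrnpl-null, 8.79 ± 0.684 CPM in WT; SD, n = 3 each). Their edgeR adjusted p-values of 0.012 to 0.032 were lost without Hnrnpl-null replicate 2 and without WT replicate 2, with values of 0.0648 to 0.142 for the 3 genes, and those of Upk3b and Krt19 were lost in 2 further such fits each. Wt1, Lhx9, Emx2 and Gata4, which such cells also express, were not called.

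Among genes that these factors regulate, 2 of 15 steroidogenic and hormone genes tested were called higher and 0 lower. Cyp11a1, the enzyme that starts steroid synthesis and a target of Nr5a1, averaged 11.3 ± 2.63 CPM in Hnrnpl-null and 2.72 ± 1.21 CPM in WT libraries (SD, n = 3 each), with an edgeR adjusted p of 0.0038 that held whichever library was left out. Fdx1, which passes electrons to that enzyme, averaged 20.2 ± 2.36 CPM in Hnrnpl-null and 12.3 ± 1.06 CPM in WT libraries, with an edgeR adjusted p of 0.032 that held only without Hnrnpl-null replicate 3 among the fits that left a library out. Of the 15, 4 lay higher without overlap and 2 lower, Fdxr and Lhcgr, where 25.6% of all genes did not overlap. Fdxr averaged 18.9 ± 1.36 CPM in Hnrnpl-null and 24.2 ± 2.99 CPM in WT libraries and was not called. Of 11 testis pathway genes tested, 0 were called, and their summed level was 44.0 to 50.6 CPM in Hnrnpl-null and 47.2 to 53.0 CPM in WT libraries. Sox9, which Foxl2 holds down in the adult mouse ovary, averaged 7.37 ± 1.70 CPM in Hnrnpl-null and 5.92 ± 1.34 CPM in WT libraries. Of 26 other transcription factors and cofactors of gonadal soma tested, 2 were called higher, Gata2 and Osr1, and 1 lower, Hes1. Osr1, a zinc finger factor of intermediate mesoderm, averaged 17.2 ± 3.0 CPM in Hnrnpl-null and 9.04 ± 0.501 CPM in WT libraries (SD, n = 3 each), with an edgeR adjusted p of 0.020 that was lost without Hnrnpl-null replicate 2 or any 1 WT library (0.0603 to 0.0744).

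**Figure D5:**
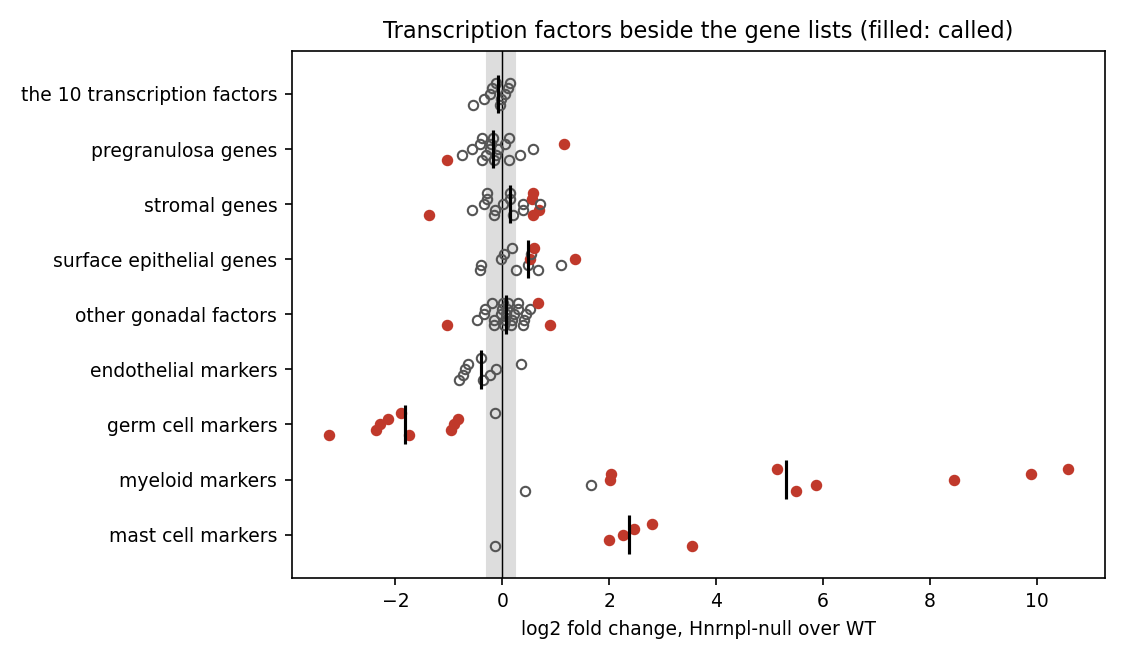
Log2 fold change, Hnrnpl-null over WT, of the 10 factors and of every tested gene in the lists of pregranulosa, stromal and surface epithelial genes, other gonadal factors, and endothelial, germ cell, myeloid and mast cell markers, with filled points for genes called at an adjusted p below 0.05, a bar at each median and grey for the middle 50% of all genes. The 10 factors have a median of -0.08 and no filled point, and most germ cell, myeloid and mast cell markers are filled. The fitted values of myeloid genes near 0 CPM in WT libraries depend on the prior count.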

How the data were processed

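RNA-seq counts per gene were measured in 3 Hnrnpl-null and 3 WT libraries of mouse ovary. The deposited values are raw counts with an exon length per gene. The submitters' processing notes name STAR 2.7.11a, HISAT2 2.2.1, featureCounts 2.0.6 and mm10, with no role given. No source used here gives the annotation, whether strand was used, or how multiply mapped reads were handled. Counts between 1 and 20 were even in 93.3% to 98.4% of cases, so 1 read pair mostly counted as 2. No 2 libraries of the same genotype agreed within sampling noise.

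Genes were filtered by filterByExpr, scaled by TMM and tested with edgeR 4.0.16 (quasi-likelihood, two-sided, R 4.3.3), checked on simulated counts. Rn45s stayed in the table. CPM use the scaled library size, and CPM per kb divide by the deposited exon length. The alternatives were DESeq2 1.42.0, limma-voom (limma 3.58.1), RLE size factors, library totals alone, removal of the Rn45s row, no filter, a stricter filter (CPM of at least 1 in 3 libraries), halved counts, each library left out, both Rn45s-rich libraries left out, and the replicate number as a block. From each gene list the called genes were named, up to 4 with the smallest p, or up to 2 of the highest level where none was called; further names were picked with their values in view. The 10 genes and all lists were chosen with earlier results of these data known. Promoter windows are from RefSeq on GRCm38.p6, which covered 6 of the 10 genes and not Gata4, Wt1, Nr5a1 or Irx5. Irx3 and Runx1 windows are printed. Of the windows not printed, that of Emx2 held TAAACA and TAATTA and that of Lhx9 held GATAA.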

Additional observations from a re-analysis of the deposited data

How the results depend on the processing

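No paired analysis enters the report, because libraries with the same replicate number did not deviate together (r of -0.124, 0.0877 and -0.0887); with the replicate block edgeR called 265 genes higher, 179 lower and 0 of the 10 factors, and the block ended the calls of Col3a1 (adjusted p 0.0658), Fdx1 (0.0533), Foxo3 (0.0707), Krt19 (0.0642) and Upk3b (0.0509) among the genes given with values. Halved counts ended that of Col3a1 (0.0527). The number of the 10 called lower, 0 as reported, was 1 (Irx3) with DESeq2, limma-voom, no filter and halved counts, and 0 to 1 when a library was left out. Genes called higher and lower, 397 and 266 as reported, were 645 and 426 with DESeq2, 775 and 498 with limma-voom, 633 and 471 with no filter, and 3 and 1 with library totals alone, where Rn45s sets the scale. Every call followed there was lost, but those of Col1a2, Des and the other cell type markers were not followed. Leaving out a library gave 145 to 532 higher and 104 to 321 lower, lowest without Hnrnpl-null replicate 2. Of 160 values of the 10 factors under the 16 alternatives, 143 kept direction and call, 6 became calls (all Irx3) and 11 changed sign, none of them a call. The log2 fold change of Foxl2 was -0.066 with limma-voom, -0.099 with library totals alone and -0.102 without both Rn45s-rich libraries, and -0.095 to 0.142 when a library was left out. That of Nr2f2 was 0.010 without both Rn45s-rich libraries and -0.247 to 0.058 when a library was left out. That of Wt1 ran from -0.086 to 0.0445, of Aard from -0.082 to 0.129 and of Emx2os from -0.328 to 0.085 when a library was left out. The other alternatives for the 10 changed no call and no direction. Depth limits Irx5 most, and Hnrnpl-null replicate 3 has the fewest counts outside Rn45s.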

Other observations

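Crnde, a long noncoding gene that starts 1676 bases from Irx5 and was chosen after its values were seen, had 1.43, 1.41 and 0.625 CPM in Hnrnpl-null libraries, against 3.42, 2.65 and 3.17 CPM in WT libraries. Its levels rest on 34, 37 and 2 counts in Hnrnpl-null and 26, 64 and 46 counts in WT libraries. Its groups did not overlap, which held for 25.6% of all genes. The log2 fold change of Crnde was -1.25 ± 0.47 (SE), and its edgeR adjusted p was 0.166. Emx2os, which starts 55 bases from Emx2, averaged 9.99 ± 3.14 CPM in Hnrnpl-null and 10.6 ± 0.729 CPM in WT libraries (SD, n = 3 each). Of the testis pathway genes, the 2 with the highest mean CPM per kb over all 6 libraries were Aard and Mro. Aard averaged 6.88 ± 0.810 CPM in Hnrnpl-null and 6.75 ± 0.716 CPM in WT libraries, and Mro averaged 5.49 ± 0.687 CPM in Hnrnpl-null and 7.80 ± 1.98 CPM in WT libraries. Of 9 endothelial markers, 0 were called, with a summed level of 169 to 190 CPM in Hnrnpl-null and 183 to 217 CPM in WT libraries. Their median log2 fold change was -0.41, and 3 lay lower and 1 higher without overlap, against 25.6% of all genes. Of 7 smooth muscle markers, 1 was called higher (Des), with a summed level of 166 to 176 CPM in Hnrnpl-null and 143 to 173 CPM in WT libraries. Markers of adrenal cells, in which Nr5a1 is also active, summed to 0.609 to 1.25 CPM in Hnrnpl-null and 0.965 to 3.69 CPM in WT libraries. Of 10 general leukocyte markers, 4 were called higher, with a summed level of 170 to 187 CPM in Hnrnpl-null and 82.8 to 93.9 CPM in WT libraries, and erythroid markers summed to 29.4 to 74.2 CPM in Hnrnpl-null and 20.9 to 36.6 CPM in WT libraries with none called. Markers of the mesonephros summed to 18.3 to 24.7 CPM in Hnrnpl-null and 14.9 to 40.8 CPM in WT libraries.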
